A study of Mus musculus with 4 samples.

Results

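The 10 genes Ptk2, Src, Ilk, Pxn, Bcar1, Zyx, Tln1, Vcl, Actn1 and Vasp encode core components of focal adhesions, the sites where a cell grips its matrix. Every array probe that is not a control and carries one of these gene names was taken, which gave 19 probes of 41174, for 10 of 27827 gene names. The arrays compared mouse embryonic fibroblasts (MEFs, cells grown out of embryos) of the genotypes Ip6k1+/+ and Ip6k1-/-, with 2 lines per genotype. Ip6k1 encodes inositol hexakisphosphate kinase 1, which makes the inositol pyrophosphate 5-IP7. Each line came from its own E14 embryo, and all 4 embryos shared 1 heterozygous mother mated with a heterozygous father. All 4 lines, the Ip6k1+/+ controls included, expressed SV40 large T antigen, which made them grow without limit. They were thawed, passaged, kept in exponential growth and detached with trypsin before their RNA was preserved, so that the RNA is that of cells just released from their matrix. The study went on to follow spreading on fibronectin and the phosphorylation of FAK and Paxillin in MEFs of both genotypes. For this later work it used 1 line per genotype derived from a single cell, whereas the arrays took 2 lines per genotype. The arrays address whether the transcripts of the focal adhesion machinery differed between the genotypes, and they hold no measure of protein or of phosphorylation.

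Focal adhesions form where integrins, receptors that span the membrane, bind fibronectin or another matrix protein. Inside the cell, talin binds the integrin tail and links it to actin filaments, vinculin strengthens that link under force, and alpha-actinin bundles the filaments. Focal adhesion kinase (FAK, the product of Ptk2) and Src sit on this scaffold, phosphorylate Paxillin and the Crk-associated substrate, and thereby signal to the GTPases that drive spreading and migration of fibroblasts.

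The signal of each gene is that of a DNA oligonucleotide of 60 bases on the array. For the 6 genes with more than 1 RefSeq probe, the probe that lies nearest the start of the transcript is shown, since the agreement of a gene's probes is part of the results. All are written 5′ to 3′ in lower case as the array files give them, with positions in the mm9 build of the mouse genome. The Ptk2 probe lies on the minus strand of chr15:73046410-73046469, the Pxn probe on the plus strand of chr5:116004015-116004074, the Tln1 probe on the minus strand of chr4:43546772-43546831 and the Vcl probe on the plus strand of chr14:21850831-21850890. The Src probe, on the plus strand of chr2:157293336-157294267, and the Vasp probe, on the minus strand of chr7:19843091-19843257, cover 932 and 167 bases of genome and therefore cross introns.
Ptk2, A_52_P359381: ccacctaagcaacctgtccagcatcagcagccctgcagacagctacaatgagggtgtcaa
Pxn, A_52_P532973: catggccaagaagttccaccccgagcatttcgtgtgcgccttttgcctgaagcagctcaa
Src, A_51_P426214: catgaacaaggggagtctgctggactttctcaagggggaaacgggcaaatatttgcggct
Tln1, A_52_P15076: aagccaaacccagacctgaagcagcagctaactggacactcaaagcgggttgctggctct
Vasp, A_52_P219314: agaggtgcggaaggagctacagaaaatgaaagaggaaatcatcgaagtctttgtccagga
Vcl, A_51_P297131: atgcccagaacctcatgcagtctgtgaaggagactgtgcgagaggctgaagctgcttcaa

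The 4 arrays lay on 1 slide and shared 1 scan, and between 52.2% and 55.8% of their spots were well above background, the detection call of the scanner software. All levels below are log2 signals from which the 75th percentile of the array was subtracted, so that 0 marks that percentile. Levels of different probes are not compared. The targeted gene was examined first. Ip6k1 was well above background in neither Ip6k1-/- line on 2 of its 3 probes, where its signal was at least 34.0-fold and 32.7-fold higher in Ip6k1+/+ MEFs, each dim line being given the lowest signal that its array called well above background. The third probe, A_51_P103718, which starts at base 4130 of the transcript, was well above background in all 4 lines and 17.5-fold lower in the Ip6k1-/- lines, at -1.98 and -1.23 against 2.46 and 2.61. Of 12 fibroblast markers, 11 were well above background in every line. Of 6 smooth muscle and myofibroblast markers, 4 were so (Acta2, Tagln, Cnn1 and Smtn), Myh11 in 1 line and Des in none. Acta2 and Tagln were saturated in all 4 lines. Of the markers of other cell types, Krt18 of 6 for epithelium, Kdr of 5 for endothelium, Cd68 of 6 for blood cells, Acta1 of 5 for skeletal muscle and Nes and Tubb3 of 4 for neural cells were well above background in every line. Krt5 was so in both Ip6k1+/+ lines alone. Epcam, Krt8, Lyz2 and Sox10 were so in the same single line, Ip6k1+/+ replicate 2. The rest, Cdh1, Pecam1, Ptprc and Myod1 among them, were so in no line.

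All 10 focal adhesion genes were expressed in every line, and none of them passed the test for a difference between Ip6k1-/- and Ip6k1+/+ MEFs. A probe of each gene was well above background in all 4 lines, as were 17 of the 19 probes. On the brightest probe of each gene the mean log2 differences between genotypes ran from -0.30 for Ptk2 to 0.43 for Pxn, 5 above and 5 below 0. None of the 18 probes that entered the test was called (limma, Benjamini-Hochberg over all 21572 probes tested, each adjusted p = 0.993), and none had an unadjusted p below 0.05. Of all probes tested, 0.0139% were called and 3.34% had such an unadjusted p. Those called were 3 probes, 2 of them probes of the targeted gene Ip6k1. The third Ip6k1 probe, 17.5-fold lower in the Ip6k1-/- lines, was not called (limma, adjusted p = 0.367). A difference of that size can thus stay uncalled with 2 lines per genotype. The median difference over the 10 genes was 0.00047, beside 0.04 over all 14334 genes tested, and the median size of the difference was 0.18 beside 0.23. With 2 lines against 2, an exact two-sided permutation test of a single gene cannot go below p = 0.333.

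**Figure D1:**
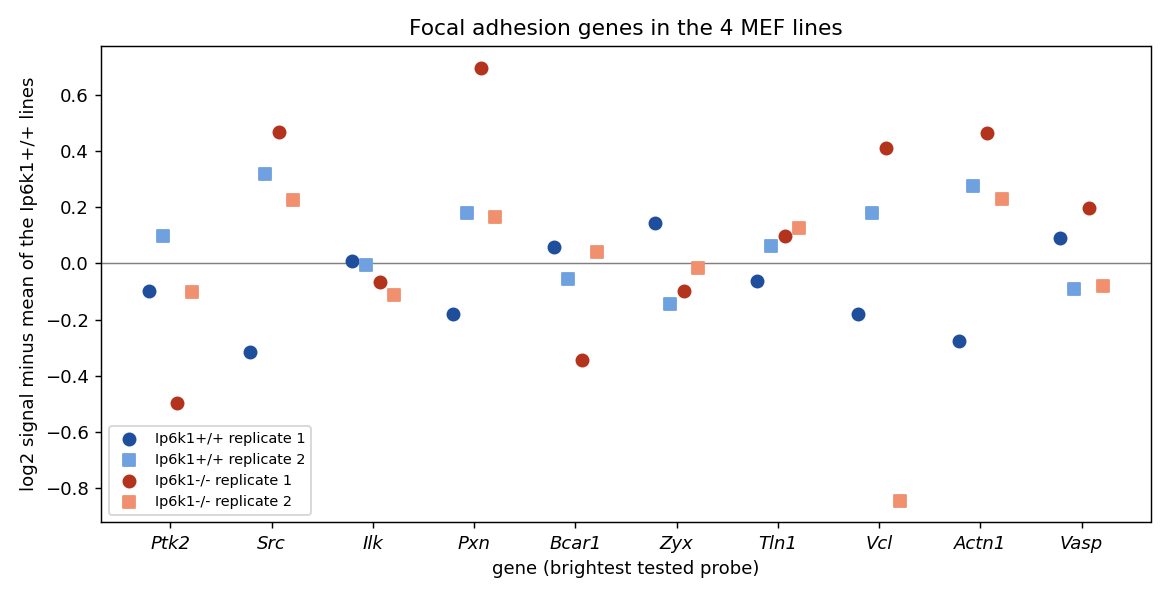
Log2 signal of the brightest probe of each of the 10 genes in each MEF line, minus the mean of the 2 Ip6k1+/+ lines (vertical axis). Each point is 1 array. Points of both genotypes interleave for 7 genes, and Vcl in Ip6k1-/- replicate 2 lies farthest from 0. The Zyx probe was saturated in 3 lines.

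Among the kinases, FAK was of interest because its phosphorylation was followed in the study. Ptk2 read 0.74 and 0.93 on the log2 scale in the Ip6k1+/+ lines, against 0.34 and 0.73 in the Ip6k1-/- lines on probe A_51_P216219, which starts at base 4257 of the transcript. Both Ip6k1-/- lines thus lay below both Ip6k1+/+ lines, Ip6k1-/- replicate 2 by only the last digit shown, and the difference was -0.30 (standard error 0.26, 95% interval -0.97 to 0.37). Without Ip6k1-/- replicate 1 it was -0.10. The probe shown above read 0.49 and 1.00 in the Ip6k1+/+ lines, against 0.48 and 0.74 in the Ip6k1-/- lines. There the genotypes overlapped and the difference was -0.14 (standard error 0.29). The third Ptk2 probe, A_52_P58585, was designed on a single cDNA clone, BC030180, rather than on a RefSeq transcript. In the Ip6k1+/+ lines it read -7.25, which was not well above background, and -3.10, against -3.81 and -3.60 in the Ip6k1-/- lines. Its computed difference of 1.47 had a standard error of 1.39 and rested on the 1 dim line, since without it the other Ip6k1+/+ line lay above both Ip6k1-/- lines. It was the only one of the 18 probes with a difference of at least 1, beside 5.95% of all probes tested.

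Src, the tyrosine kinase that binds active FAK, has a probe printed in 10 spots per array, A_52_P600547. Its log2 signal was 0.49 and 1.13 in the Ip6k1+/+ lines, against 1.28 and 1.04 in the Ip6k1-/- lines. Ip6k1+/+ replicate 1 was the low line, and the other 3 lay close together. The standard deviation between the spots of 1 array was 0.03 to 0.05, which covers the error within an array alone, and the Ip6k1+/+ lines lay 0.63 apart. The difference between genotypes was 0.35 (standard error 0.30, 95% interval -0.44 to 1.14). On the probe shown above, Src read -3.78 and -3.52 in the Ip6k1+/+ lines, against -3.17 and -3.46 in the Ip6k1-/- lines, which gave a difference of 0.33 (standard error 0.34) with the Ip6k1-/- lines above the Ip6k1+/+ lines.

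Ilk, a pseudokinase that joins integrins to actin through its partners PINCH and parvin, varied least. Its log2 signal was 4.00 and 3.98 in the Ip6k1+/+ lines, against 3.92 and 3.88 in the Ip6k1-/- lines. The genotypes did not overlap, but the difference of -0.09 (standard error 0.17, 95% interval -0.54 to 0.36) corresponds to 1.06-fold.

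Among the 10 genes, Pxn had the largest difference on a brightest probe, though its size rested on single lines. Paxillin, its product, is a substrate of FAK and a docking site for many adhesion proteins. Probe A_51_P214859 read 0.47 and 0.83 in the Ip6k1+/+ lines, against 1.35 and 0.82 in the Ip6k1-/- lines. Only Ip6k1-/- replicate 1 stood above the controls, and the other Ip6k1-/- line fell between them. The difference was 0.43 (standard error 0.30, 95% interval -0.34 to 1.21), or 1.35-fold. It was 0.16 without Ip6k1-/- replicate 1 and 0.25 without Ip6k1+/+ replicate 1. The second probe, shown above, read -2.61 and -2.14 in the Ip6k1+/+ lines, against -1.74 and -2.32 in the Ip6k1-/- lines, in the same order of lines, with a difference of 0.35 (standard error 0.38). The third Pxn probe, A_52_P317416, designed on the cDNA clone AK084243, rose well above background in no line and was not tested.

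Bcar1, which encodes the Crk-associated substrate phosphorylated by Src and FAK, read 4.79 and 4.67 in the Ip6k1+/+ lines, against 4.39 and 4.77 in the Ip6k1-/- lines. Ip6k1-/- replicate 1 was low and the other Ip6k1-/- line lay between the controls, with a difference of -0.15 (standard error 0.21, 95% interval -0.70 to 0.40). Zyx encodes zyxin, a LIM protein of mature adhesions that recruits VASP. Its probe read 6.71 and 6.42 in the Ip6k1+/+ lines, against 6.46 and 6.55 in the Ip6k1-/- lines. It was saturated on both Ip6k1+/+ arrays and on that of Ip6k1-/- replicate 2, so that these are lower limits and no fold is given.

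Among the proteins that link integrins to actin, talin was almost level. Tln1, which activates integrins, read 3.88 and 4.00 in the Ip6k1+/+ lines, against 4.03 and 4.06 in the Ip6k1-/- lines on its brightest probe, A_51_P446865, a difference of 0.11 (standard error 0.17, 95% interval -0.34 to 0.57) without overlap. The other probes, at bases 6936 and 7388 of the transcript, overlapped between genotypes and differed by -0.09 (standard error 0.22) and 0.12 (standard error 0.22), so that the 3 probes did not share a direction. Actn1, the alpha-actinin that crosslinks actin filaments in fibroblasts, read 2.30 and 2.85 in the Ip6k1+/+ lines, against 3.04 and 2.80 in the Ip6k1-/- lines. Here too Ip6k1+/+ replicate 1 was low and Ip6k1-/- replicate 1 high, with a difference of 0.35 (standard error 0.27, 95% interval -0.35 to 1.04).

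Vcl, the gene of vinculin, was the member that varied most, and it did so between the lines of 1 genotype. Probe A_52_P190973 read 3.65 and 4.01 in the Ip6k1+/+ lines, against 4.24 and 2.99 in the Ip6k1-/- lines. Ip6k1-/- replicate 1 was the highest of the 4 lines and Ip6k1-/- replicate 2 the lowest, 2.39-fold apart. Probe A_51_P297131, shown above, read -0.01 and 0.35 in the Ip6k1+/+ lines, against 0.68 and -0.86 in the Ip6k1-/- lines, in the same order and 2.90-fold apart between the Ip6k1-/- lines. These gaps between the Ip6k1-/- lines exceeded those of 91.9% and 94.0% of all probes tested. The difference between genotypes was -0.22 (standard error 0.46, 95% interval -1.41 to 0.98) on the brighter probe and -0.26 (standard error 0.56) on the other. Without Ip6k1-/- replicate 2 it was 0.41 on the brighter probe, and without Ip6k1-/- replicate 1 it was -0.84. Arrays of whole cultures cannot tell less RNA per cell from fewer cells that express a gene.

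The promoter of Vcl is shown because this member spread most over the lines and because it was the only one of the 10 promoter windows searched, for 8 of the members, that holds a CArG box, the motif bound by serum response factor, an activator of many cytoskeletal genes. Windows of 300 bases around a transcription start were taken from RefSeq's annotation of GRCm38.p6, and the box reads the same way on both strands. Only exact matches to CCWWWWWWGG, where W is A or T, were counted, so a box with a mismatch would be missed. Of all 32851 windows, 1.63% hold it, as do 3 of 77 for the other focal adhesion genes (those of Fermt2, Rsu1 and Trip6) and 0 of 4 for smooth muscle markers. Ptk2 and Pxn had no entry in the table. The match is a description of these letters and was not tested against expression. The window lies on the plus strand of chr14:20929148-20929447, and capitals mark the CArG box, which lies 227 to 218 bases before the start.
Vcl promoter: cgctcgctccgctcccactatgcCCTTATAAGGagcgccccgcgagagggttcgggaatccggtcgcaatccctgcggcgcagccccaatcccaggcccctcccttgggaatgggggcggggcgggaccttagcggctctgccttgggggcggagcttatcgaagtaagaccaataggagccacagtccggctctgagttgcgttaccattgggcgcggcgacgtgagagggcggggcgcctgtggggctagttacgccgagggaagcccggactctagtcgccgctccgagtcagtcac

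Vasp encodes a protein that lengthens actin filaments at adhesions and at the leading edge. Probe A_51_P179131 read 2.02 and 1.84 in the Ip6k1+/+ lines, against 2.13 and 1.85 in the Ip6k1-/- lines, so that each genotype had 1 higher and 1 lower line. The difference was 0.06 (standard error 0.22, 95% interval -0.51 to 0.63). The probe shown above read -0.83 and -0.95 in the Ip6k1+/+ lines, against -0.61 and -0.84 in the Ip6k1-/- lines, in the same order of lines, with a difference of 0.17 (standard error 0.27).

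**Figure D2:**
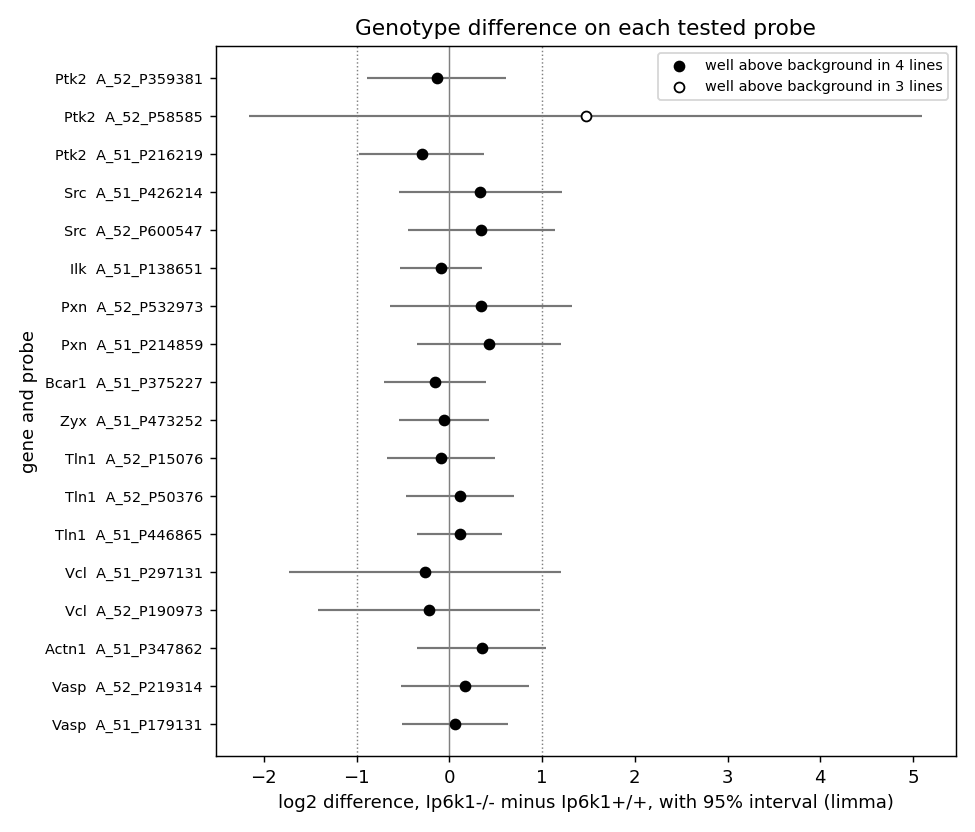
Log2 difference between the genotype means (horizontal axis) for each of the 18 probes tested, with the 95% interval of limma's fit as a bar. Every interval includes 0, and that of Ptk2 probe A_52_P58585, drawn open because 1 line was not well above background, is the widest. Dotted lines mark a difference of 1 in either direction.

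The precision of 2 lines per genotype differed between members. For 6 of the 10 genes, Ptk2, Ilk, Bcar1, Zyx, Tln1 and Vasp, the 95% interval of the brightest probe lay within 1 on the log2 scale, that is within 2-fold either way, although that of Zyx comes from a saturated probe. For Pxn, Src, Actn1 and Vcl a 2-fold difference in at least 1 direction was not outside the interval. The intervals hold for 1 gene at a time and are not adjusted for the number of genes.

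For 9 of the 10 genes, all but Ilk, the difference between genotype means was smaller than the larger of both gaps between lines of 1 genotype, as it was for 80.8% of all genes tested. Zyx is counted here by the gap of 0.29 between its Ip6k1+/+ lines, both of which were saturated. That gap is therefore not a measured difference between lines. The median gap over the 10 genes was 0.26 between the Ip6k1-/- lines and 0.24 between the Ip6k1+/+ lines, beside 0.31 and 0.36 over all genes tested. Ip6k1-/- replicate 1 was the highest line for 5 genes, Pxn, Src, Vcl, Actn1 and Vasp, and the lowest for 2, Ptk2 and Bcar1. Ip6k1+/+ replicate 1 was the lowest for 4, Pxn, Src, Tln1 and Actn1. Both Ip6k1-/- lines lay above both Ip6k1+/+ lines for 1 gene, Tln1, and below them for 2, Ptk2 and Ilk, beside 18.1% and 13.2% of all genes tested. Over the 18 probes, these counts were 2 above and 2 below, beside 18.8% and 12.6% of all probes tested.

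**Figure D3:**
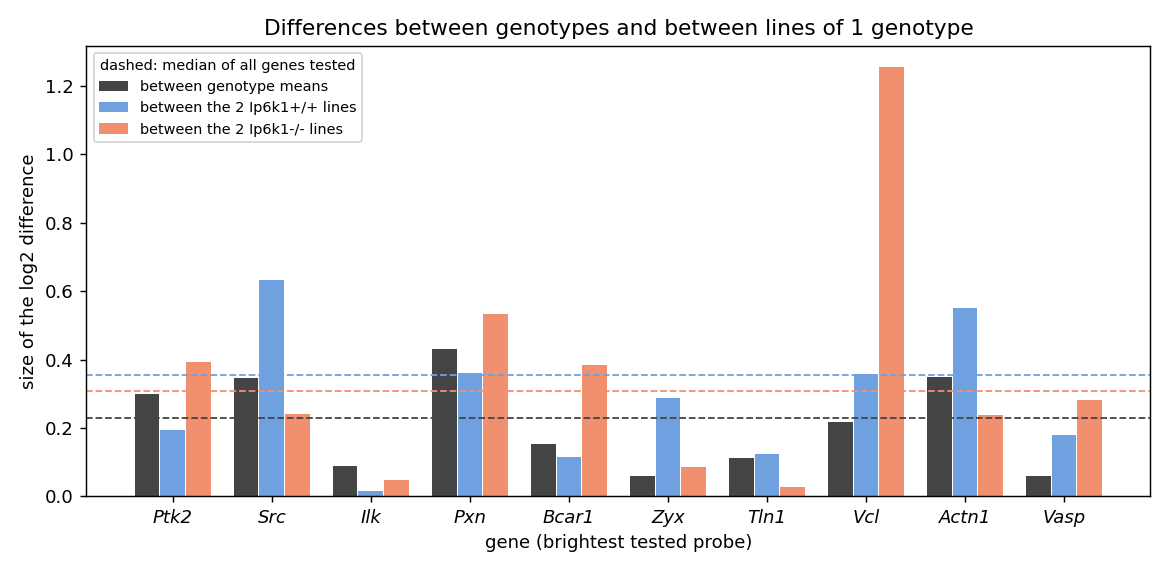
Size of the log2 difference (vertical axis, from 0) between genotype means and between the 2 lines of each genotype, for the brightest probe of each gene. Dashed lines give the median of each quantity over the 14334 genes tested. The gap between the Ip6k1-/- lines in Vcl, 1.25, is the tallest bar, and the Zyx probe was saturated in 3 lines.

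For 3 of the 6 genes with more than 1 RefSeq probe, Pxn, Vasp and Vcl, the first and the last of these probes placed the 4 lines in the same order. For Src they shared the lowest line, Ip6k1+/+ replicate 1, and the highest, Ip6k1-/- replicate 1. For Ptk2 they also shared both ends, Ip6k1-/- replicate 1 being lowest and Ip6k1+/+ replicate 2 highest. For Tln1, whose lines lay within 0.21 of each other on both probes, they did not.

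**Figure D4:**
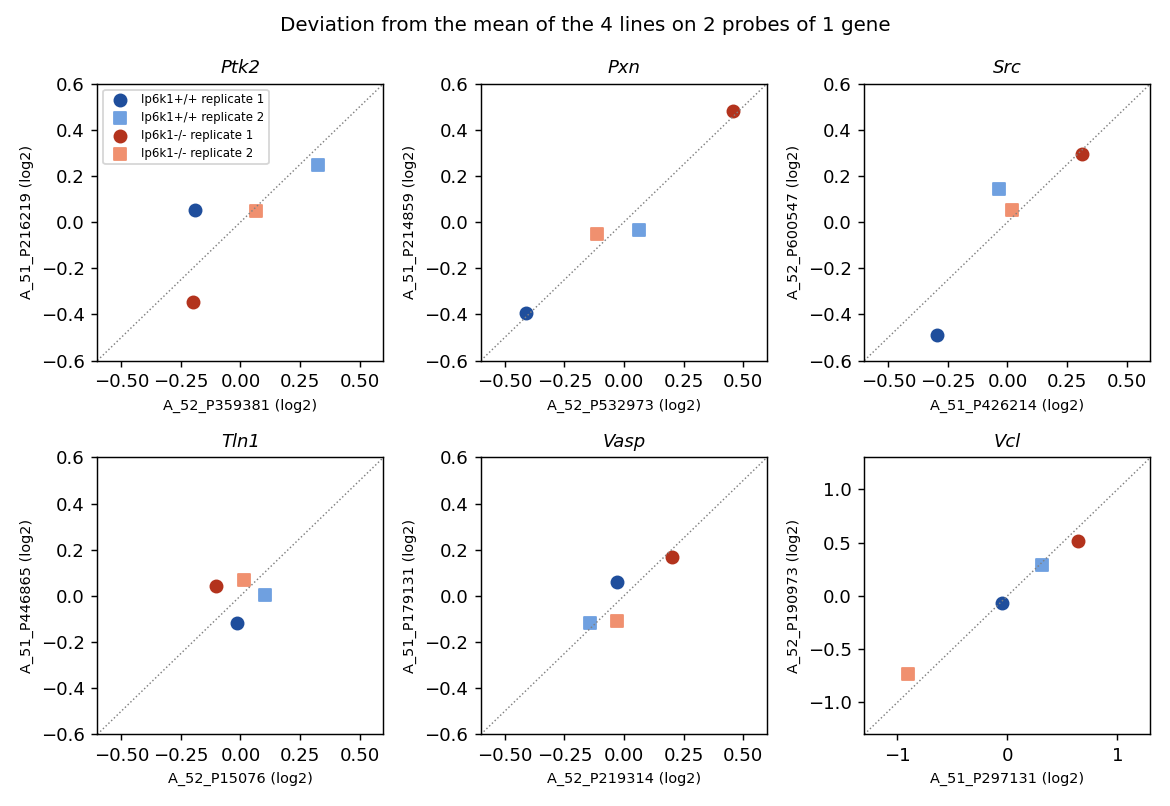
Deviation of each line from the mean of the 4 lines, in log2, on the RefSeq probe nearest the start of the transcript (horizontal axis) and on the one nearest its end (vertical axis). Each point is 1 line, and the dotted line marks equal deviations. Lines of Pxn, Vasp and Vcl keep their order on both probes, with a wider scale for Vcl.

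No gene on a wider list of focal adhesion genes passed the test either. Of 70 further genes with known roles in focal adhesions, all on the array, 63 could be tested and 7 could not, among them the blood cell genes Fermt3 and Parvg, which were well above background in no line. None of the 63 was called (limma, Benjamini-Hochberg) and none had an unadjusted p below 0.05, beside 0.00698% and 3.68% of all genes tested. The median size was 0.18 for the difference between genotypes, 0.26 for the gap between the Ip6k1-/- lines and 0.45 for that between the Ip6k1+/+ lines. The median difference was 0.08. Both Ip6k1-/- lines lay above both controls for 9 genes and below them for 5, beside 18.1% and 13.2% of all genes tested.

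Roles are given for 49 of the 63 genes. The 11 genes of the role kinases and phosphatases, which here takes in the FAK inhibitor Rb1cc1, had a median difference of 0.19, with 8 above 0. The 8 tested integrin activators and actin linkers had a median of -0.13, with 6 below 0. The genotypes overlapped for 8 of the former and for all 8 of the latter. The median gap between the Ip6k1+/+ lines was 0.35 and 0.71 in these 2 roles. Over all 14334 genes tested, 7879 lay above 0 and 6455 below. The 14 relatives and partners of Paxillin and the Crk-associated substrate had a median of -0.07, with 7 above 0. The 12 LIM proteins and alpha-actinin partners had one of -0.04, with 6 above 0. The 4 tested genes of the ILK complex had one of -0.24, with 1 above 0.

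Among the genes whose genotypes did not overlap, those with the highest differences were Actr2, Crk, Rb1cc1, Pak1 and Rock1. Actr2, a subunit of the Arp2/3 complex that branches actin, read 2.89 and 2.62 in the Ip6k1+/+ lines, against 3.30 and 3.21 in the Ip6k1-/- lines, which gave a difference of 0.50 (standard error 0.20, 95% interval -0.02 to 1.03). Crk, the adaptor that binds phosphorylated Paxillin, differed by 0.42 (standard error 0.29). Rb1cc1, known as an inhibitor of FAK besides its role in autophagy, differed by 0.41 (standard error 0.22), Pak1, a kinase activated by Rac, by 0.39 (standard error 0.22) and Rock1 by 0.26 (standard error 0.19). None of these passed the test.

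The lowest differences of this kind were those of Lims2, Efs, Csrp2, Tgfb1i1 and Dock1. Lims2, which encodes a PINCH protein that binds the product of Ilk, read 2.93 and 0.97 in the Ip6k1+/+ lines, against 0.85 and -0.49 in the Ip6k1-/- lines. Its difference of -1.77 had a standard error of 0.80 (95% interval -3.86 to 0.31), and the gap between the Ip6k1+/+ lines was larger still. Efs, a relative of Bcar1, read -2.17 and -2.11 in the Ip6k1+/+ lines, against -2.44 and -3.38 in the Ip6k1-/- lines, and Csrp2, a LIM protein of the cytoskeleton, 5.23 and 5.12 against 5.09 and 3.94. In both, Ip6k1-/- replicate 2 was the low line, as in Vcl. Tgfb1i1, a relative of Paxillin, differed by -0.62 (standard error 0.33) and Dock1, an activator of Rac that works with Crk, by -0.42 (standard error 0.23). None of these passed the test either. Arhgef6, an activator of Rac, differed by -1.35, but its genotypes overlapped, and it rose well above background in 3 lines, Ip6k1-/- replicate 2 being the exception.

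**Figure D5:**
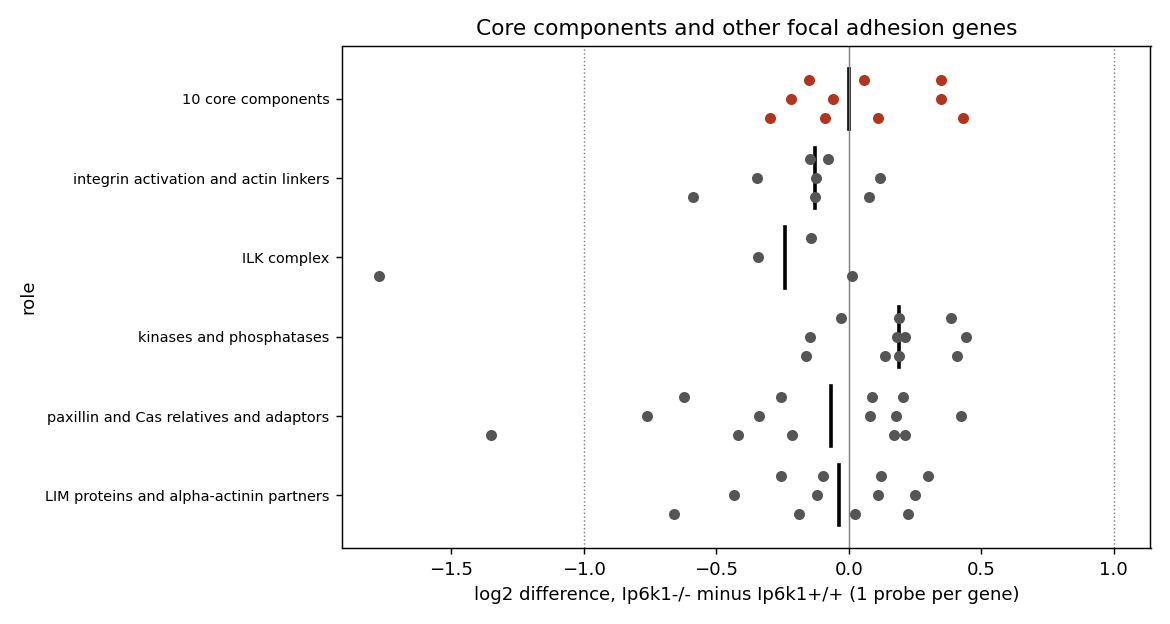
Log2 difference between the genotype means (horizontal axis) for the 10 core components, in red, and for 49 of the 63 other focal adhesion genes by role, in grey, with 1 point per gene and a vertical bar at each median. The core components lie between -0.30 and 0.43, and 2 of the others, Lims2 and Arhgef6, lie beyond 1, marked by dotted lines. Flna and, in 1 line, Palld were saturated.

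Of the transcripts that often serve as references, Gapdh differed by 0.11 (standard error 0.25) on its probe that was not saturated. Actb, the cytoplasmic actin that focal adhesions anchor, read 0.83 and -0.21 in the Ip6k1+/+ lines, against 0.56 and 0.86 in the Ip6k1-/- lines, on its RefSeq probe A_51_P173760. The Ip6k1+/+ lines thus lay 1.05 apart, and the difference between genotypes was 0.40 (standard error 0.42). A second probe under this name, A_51_P251154, was designed on the cDNA clone BC016624, which the array files place on chromosome X rather than on chromosome 5 with the RefSeq transcript. It differed by 0.74 (standard error 0.43).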

How the data were processed

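RNA of 2 Ip6k1+/+ and 2 Ip6k1-/- MEF lines was labelled with Cy3 and hybridized to 1 single-colour Agilent whole-genome array each. The authors deposited each spot's processed intensity from Feature Extraction, which is linear and background-subtracted, and a table of log2 values that GeneSpring had shifted by the 75th percentile. Apart from 1 constant for each array, that table deviated from the values used here by a median of 0.0025.

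Here, the deposited intensity was put on the log2 scale, and each array was shifted so that the 75th percentile of its 43379 spots for transcripts lay at 0. Spots marked as outliers (96 to 133 per array) were left out and saturated spots kept. A probe was well above background if most of its kept spots were. The 21572 probes that passed this on both arrays of a genotype were tested with limma (lmFit, then eBayes with its variance trend, version 3.58.1, R 4.3.3) and Benjamini-Hochberg adjustment, called at an adjusted p of at most 0.05. The code was tested on simulated data. A gene was counted by its tested probe with the highest mean. The number of arrays limits the precision.

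The members and lists were chosen with earlier results of these data known. Named beside the members were Ip6k1, Actb, Gapdh and, of the other focal adhesion genes without overlap between genotypes, the 5 highest and the 5 lowest. Lims2 and Arhgef6 are also named as the 2 of them past a difference of 1, and Fermt3 and Parvg as genes not detected, chosen after their values were seen. Probe sequences were to be shown where they translate into a given protein. No protein table was used here, so the first RefSeq probe of each gene with several was shown instead. Alternatives were normexp background correction, median and quantile normalization, the deposited values, no filter or a stricter one on dim probes, outlier spots kept, no variance trend, the methods' t-test, a replicate block, the mean of a gene's probes and each array left out. All arrays share 1 slide and 1 scan, so neither could be a block. A further role of the other focal adhesion genes is not reported here.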

Additional observations from a re-analysis of the deposited data

How the results depend on the processing

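No member was called, and none had an unadjusted p below 0.05, under any alternative in which they were tested. The mean of a gene's probes gave a value with no test. The replicate block left the difference of Vcl at -0.22 and gave 5 of the other focal adhesion genes at an unadjusted p below 0.05, where the fit without it gave 0. Quantile normalization and the methods' t-test gave 1 each, and leaving out 1 array gave 1 to 4, while none of these settings called any of them after adjustment. The share of all genes at such an unadjusted p is given here for the main fit alone. These counts under other settings therefore have no background to be read against, and whether they exceed it was not tested. Replicate 1 minus replicate 2 correlated at 0.48 between genotypes over the probes tested, but nothing in the labels says that a number pairs lines. The median difference of the members (0.00047) was 0.047 under median normalization, 0.080 with the mean of each gene's tested probes and 0.059 without the saturated Zyx, an alternative chosen after seeing the data, and leaving out 1 array gave -0.035 to 0.15. Directions turned where 1 array was left out for Bcar1 (-0.34 to 0.040), Vasp (-0.081 to 0.20), Vcl (-0.84 to 0.41) and Zyx (-0.20 to 0.085). Ptk2 turned to 0.34 with the mean of its probes, because that mean takes in the dim probe A_52_P58585. Ilk, Tln1, Pxn, Src and Actn1 kept their direction, but the filters, the methods' t-test and the replicate block leave a difference as it is. Without 1 array, Pxn ranged from 0.16 to 0.70, Ptk2 from -0.50 to -0.10, Src from 0.03 to 0.66 and Actn1 from 0.07 to 0.62. The number of arrays and the saturation of Zyx limit what these data can show. The cause of these shifts was not tested.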
